A study of Mus musculus with 12 samples.

Results

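The members described here are 10 genes that set how much of the small GTPase Ras is loaded with GTP, taken by gene name from a table of 41128 genes. They are the RasGRP exchange factors Rasgrp1, Rasgrp2, Rasgrp3 and Rasgrp4, the SOS exchange factors Sos1 and Sos2, and the GTPase-activating genes Rasa1, Rasa2, Rasa3 and Nf1. All 10 were in the table, and 9 of them passed the filter on low values that left 12520 genes to test. Rasgrp4 did not pass it.

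RNA sequencing was carried out on resting B cells (CD43-) and naive T cells (CD4+CD62L+) purified from the spleen of C57BL/6J mice that were 6 to 8 weeks old. Cells of each type came from females and from males, giving 4 groups of 3 libraries. No group carried an allele or received a treatment. Sorting kept T cells that were CD62L high, CD44 low and CD25 negative. The series describes its replicates as pooled, so each library stands for a pool of mice.

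Ras works as a switch that is on when it holds GTP. Exchange factors load it with GTP, and GTPase-activating proteins (RasGAPs) make it hydrolyse that GTP. RasGRP proteins are recruited to membranes by diacylglycerol, the lipid made by phospholipase C gamma after antigen receptor triggering, whereas SOS proteins are brought there by the adaptor Grb2. RasGRP1 is best known from T cells and RasGRP3 from B cells, RasGRP2 acts mainly on the related GTPase Rap1, and RasGRP4 is best known from mast cells and other myeloid cells.

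The values are adjusted TPM, a length-corrected abundance that the authors rescaled between libraries. The totals of the 12 libraries ran from 561020 to 1453940, and sequencing depth is unknown. The sum of 4 B cell markers (Cd79a, Cd79b, Ms4a1 and Pax5) was 2220.4 to 2643 in B cell libraries and 0.896 to 4.91 in T cell libraries. The sum of 5 T cell markers (Cd3d, Cd3e, Cd3g, Cd4 and Lck) was 1044 to 1328 in T cell libraries and 9.25 to 13.8 in B cell libraries. In B cells nearly all of it was Lck, at 8.94 to 13.4, and each of the others was at most 0.263. No neutrophil or natural killer cell marker checked passed the filter, the 3 monocyte and macrophage markers in the table summed to 8.95 to 13.1 in B cells and to 1.06 to 4.55 in T cells, and Cd8a and Cd8b1 summed to at most 8.27. Both T cell libraries numbered 6, female and male, stood apart from those numbered 4 and 5. In them Il2ra, which encodes CD25, was at 4.999 and 4.11, against 0.158 to 0.340 in the other 4 T cell libraries. Several results that rest on them are therefore given with and without them.

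The bases just upstream of the transcript starts of Rasgrp3, Rasgrp1 and Nf1 are shown because these genes differed most between the cell types. RefSeq (build GRCm38.p6, the assembly named mm10 in the processing notes) gave a window of 300 bases, from 250 before to 50 after the start, for 9 of the 10 genes, in 11 windows. The stretches below were shortened to bases that lie in no exon of the GENCODE M21 annotation, and capitals mark each CG dinucleotide.
Rasgrp3, upstream start, plus strand, chr17:75435655-75435895: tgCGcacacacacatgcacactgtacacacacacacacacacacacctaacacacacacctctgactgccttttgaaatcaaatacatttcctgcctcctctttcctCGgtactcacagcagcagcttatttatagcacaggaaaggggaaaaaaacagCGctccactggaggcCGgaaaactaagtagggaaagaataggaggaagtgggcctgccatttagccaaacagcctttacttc
Rasgrp3, downstream start, plus strand, chr17:75465288-75465485: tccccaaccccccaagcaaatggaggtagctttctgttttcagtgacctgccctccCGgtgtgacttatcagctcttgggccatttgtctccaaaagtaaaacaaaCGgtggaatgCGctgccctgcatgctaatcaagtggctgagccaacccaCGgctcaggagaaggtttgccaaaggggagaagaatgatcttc
Rasgrp1, minus strand, chr2:117343002-117343127: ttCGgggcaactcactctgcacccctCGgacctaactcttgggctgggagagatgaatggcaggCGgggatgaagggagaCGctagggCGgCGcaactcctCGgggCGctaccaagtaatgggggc
Nf1, plus strand, chr11:79339642-79339692: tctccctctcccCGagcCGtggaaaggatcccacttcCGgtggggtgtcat

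Rasgrp3 differed from the other genes in base composition. Its full windows of 300 bases held 5 and 9 CG dinucleotides, near the median of 7 over all 32851 RefSeq windows. The 9 windows of the other 8 genes held 23 to 54. The letters GAGGAAGT, looked for on both strands as the kind of sequence bound by the B cell and myeloid factor PU.1, were present in the upstream Rasgrp3 window and in no other window of these genes, and in 3.202% of all windows. The letters CAGGTG, an E-box looked for in the same way, were present only in the Rasgrp1 window among these genes and in 20.21% of all windows. The shortened Rasgrp1 stretch printed above does not hold them on either strand. Both motifs were chosen after the sequences and the expression values were known, and a match is no evidence of binding.

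The first comparison asked how the RasGRP genes differ between resting B cells and naive T cells. Rasgrp3 was a B cell transcript and was close to absent from T cells, and Rasgrp1 was present in both and about 2.09-fold higher in T cells. Rasgrp2 was abundant in both, and Rasgrp4 was low in both, near the filter limit of 1. Of the 9 genes tested, 6 were past an adjusted p of 0.05 in limma, 3 of them higher in B cells (Rasgrp3, Sos2 and Nf1) and 3 higher in T cells (Rasgrp1, Rasa1 and Rasa3). Over all genes tested, 73.0% were past this threshold, 31.4% higher in B cells against 41.6% higher in T cells, so a call by itself does not set these genes apart. With an absolute log2 fold change of at least 1 also required, 3 of the 9 passed, against 21.6% of all genes. Those 3 were Rasgrp3 and Nf1, higher in B cells as were 11.8% of all genes, and Rasgrp1, higher in T cells as were 9.76%. Rasgrp1 lay close to this limit of 1, and was under it after median-ratio scaling (-0.96), with libraries rescaled to 1 total (-0.67) and without both T cell libraries numbered 6 (-0.99). The B and T cell libraries did not overlap for 4 of the 9 genes on the deposited scale, against 53.9% of all genes. With libraries rescaled to 1 total, 2 of these 4, Rasgrp1 and Sos2, overlapped. The share of all genes on that scale was not computed, so this overlap cannot be read as particular to these 2 genes. The median log2 fold change, B minus T cells, was 0.05 over the 9 genes and -0.09 over all genes tested.

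**Figure D1:**
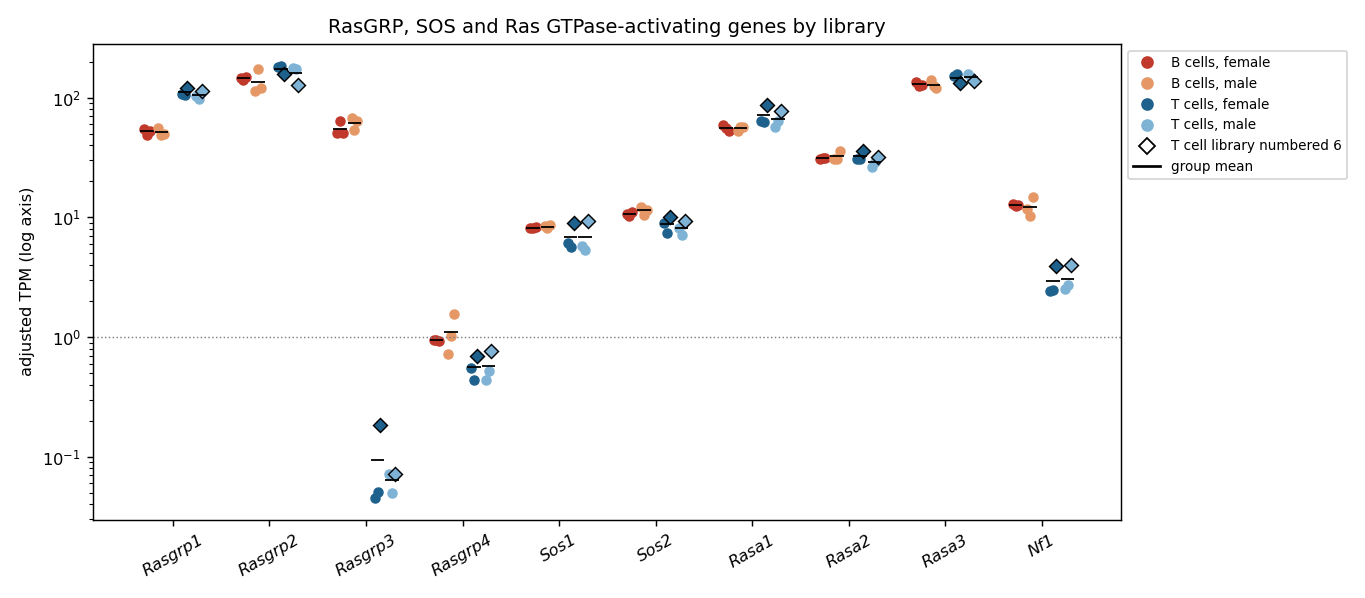
Adjusted TPM (log axis) of the 10 genes in each of the 12 libraries, with points for libraries and short lines for the means of the 4 groups of 3; the dotted line marks an adjusted TPM of 1. Rasgrp3 lies at 50.9 to 67.3 in B cells against 0.0452 to 0.184 in T cells, while Rasgrp2 lies at 113.2 or more and Rasa3 at 121.0 or more in every library.

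Rasgrp3 (ENSMUSG00000071042, chr17:75435896-75529054, plus strand, protein-coding) encodes the RasGRP best known from B cells. Its adjusted TPM in B cells had a lowest value of 50.9, a median of 58.8 and a highest value of 67.3. In T cells it was 0.0452, 0.0506 and 0.184 in females 4, 5 and 6, and 0.0720, 0.0494 and 0.0716 in males 4, 5 and 6. Every B cell library lay far above every T cell library, and the highest T cell value was that of female 6. The log2 fold change was 5.78 ± 0.08 (SE, n = 6 and 6 libraries, limma adjusted p = 1.622e-15), on the log2(adjusted TPM + 1) scale, which understates the change of a gene this low in T cells. The deposited bounds give another measure of the gap. The lowest lower bound in B cells was 48.9 and the highest upper bound in T cells 0.267, a ratio of 183.2.

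The level of Rasgrp3 left in T cells was 0.0774% to 0.316% of the B cell mean. The summed level of the 4 B cell markers in the same libraries was 0.0376% to 0.206% of its B cell mean, and both measures were highest in T cell female 6. The single markers spread widely. Cd79a was at 0.117% to 0.322% of its B cell mean, near the values of Rasgrp3, whereas Pax5, a B cell transcription factor, was at 0.000167% to 0.00148%, far below them. In bulk libraries a few B cells and a low level in every T cell cannot be told apart. The upper deposited bound of Rasgrp3 was up to 7.24 times the lower one, so the order among the T cell libraries has little precision.

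Rasgrp1 (ENSMUSG00000027347, chr2:117279993-117343001, minus strand, protein-coding) encodes the diacylglycerol-dependent exchange factor through which the T cell receptor activates Ras. Its adjusted TPM in B cells had a lowest value of 48.8, a median of 51.2 and a highest value of 55.6. In T cells these were 97.6, 106.6 and 119.4. All T cell libraries lay above all B cell libraries, and the libraries of each type lay close together, with an SD within groups of 0.10 on the log2 scale against a median of 0.13 over all genes tested. The log2 fold change, B minus T cells, was -1.05 ± 0.06 (SE, limma adjusted p = 4.964e-09). It was -0.99 without both T cell libraries numbered 6.

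Rasgrp2 (ENSMUSG00000032946, chr19:6399340-6415216, plus strand, protein-coding) had the highest mean of the 10 genes in both cell types. Its adjusted TPM in B cells had a lowest value of 113.2, a median of 143.0 and a highest value of 173.6, and in T cells these were 127.9, 175.4 and 185.2. The ranges overlapped, and the highest B cell value was that of male 2 and the lowest T cell value that of male 6. On the log2 scale the difference, B minus T cells, was -0.25 ± 0.11 (SE, limma adjusted p = 0.06163), which did not pass the threshold, with a 95% interval from -0.50 to -0.01. Single libraries decided this call. The adjusted p was 0.005502 without male B cell 2, 0.04565 without female T cell 6, 0.01521 without male T cell 6 and 0.01156 without both T cell libraries numbered 6.

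Rasgrp4 (ENSMUSG00000030589, chr7:29134851-29153961, plus strand, protein-coding) was at 0.719 to 1.57 in B cells against 0.434 to 0.772 in T cells, with overlapping ranges. It reached 1 in only 2 libraries and was not tested with the filter in place. Its upper bound was 1.46 to 2.99 times its lower bound. The 5 mast cell and basophil markers checked (Cpa3, Kit, Fcer1a, Mcpt8 and Ms4a2) summed to at most 0.866 in any library, and none passed the filter. Whether the Rasgrp4 signal came from such cells was not tested. Fam98c overlaps Rasgrp4 on the opposite strand, with means of 8.78 in B cells against 14.4 in T cells. The kit kept the strand, but how the counting used strand is not given in the sources used here.

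The make-up of the RasGRP family can be compared without regard to the scaling of a library, since shares within a library do not depend on it. These shares are a description, with no test. Rasgrp1 made up 20.7% ± 2.05 (SD, n = 6) of the summed RasGRP adjusted TPM in B cells against 39.4% ± 4.62 in T cells, without overlap. The T cell mean was 36.5% without both libraries numbered 6. Rasgrp2 made up 55.6% ± 5.32 in B cells against 60.3% ± 4.70 in T cells, with overlap. Rasgrp3 made up 23.4% ± 3.93 in B cells against 0.0156% to 0.0667% in T cells. The sum of the family overlapped between the cell types, at 251.7 ± 15.1 in B cells against 275.7 ± 17.6 in T cells.

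**Figure D2:**
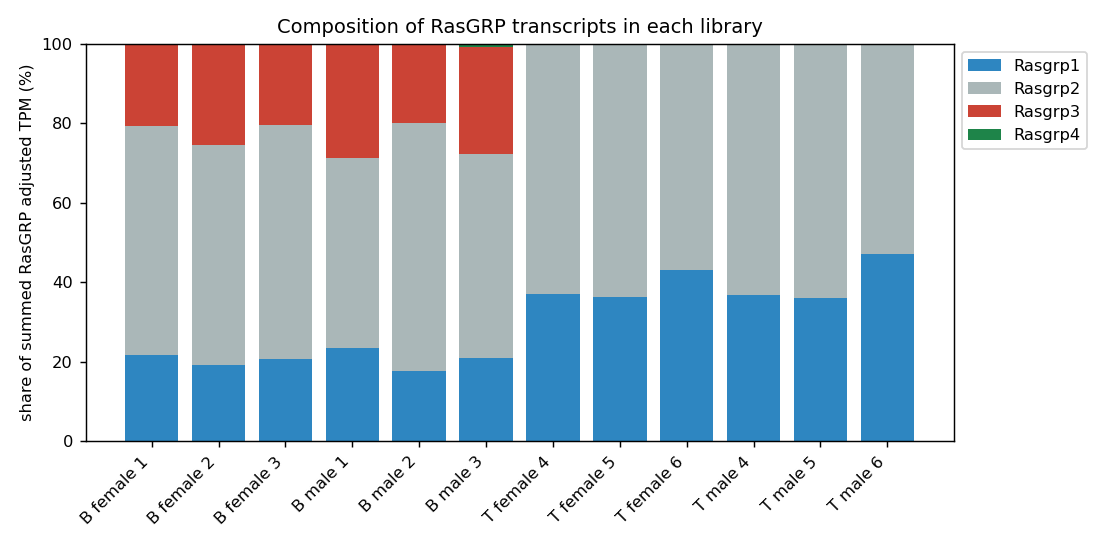
Share (%) of the summed RasGRP adjusted TPM taken by each of the 4 RasGRP genes in each of the 12 libraries, 1 bar per library. Rasgrp3 takes 19.5% to 28.4% in B cells and is not visible in T cells, where Rasgrp1 takes 36.0% to 47.1%, against 17.6% to 23.5% in B cells.

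The summed SOS level was far below the summed RasGRP level in both cell types, although Rasgrp4 lay below both SOS genes in each of them and Rasgrp3 did so in T cells. Sos1 (ENSMUSG00000024241, chr17:80393751-80480453, minus strand, protein-coding) varied little in B cells, with a lowest value of 8.10, a median of 8.24 and a highest value of 8.60. In T cells it was at 5.37 to 6.07 in the 4 libraries numbered 4 and 5, and at 8.98 and 9.26 in those numbered 6. The T cell libraries numbered 6 lay above every B cell library and the other 4 below every one. The fitted log2 fold change was 0.27 ± 0.12 (SE, limma adjusted p = 0.06615), which did not pass the threshold. Without both T cell libraries numbered 6 it was 0.46 (adjusted p = 2.158e-05), and leaving out either of them alone also brought it past the threshold, with adjusted p of 0.01124 without female 6 and 0.004296 without male 6.

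Sos2 (ENSMUSG00000034801, chr12:69583762-69681852, minus strand, protein-coding) had a lowest value of 10.2, a median of 10.8 and a highest value of 12.2 in B cells, and of 7.12, 8.56 and 10.1 in T cells. The ranges did not overlap, though the highest T cell value lay just under the lowest B cell value. In limma the log2 fold change was 0.35 ± 0.08 (SE, limma adjusted p = 0.001693), a 1.30-fold higher mean in B cells. In females alone it did not pass, with an adjusted p of 0.0855. Without both T cell libraries numbered 6 the log2 fold change was 0.435 (limma adjusted p = 0.000322). The RasGRP sum was 13.1 ± 1.29 (SD, n = 6) times the SOS sum in B cells against 18.5 ± 3.83 times in T cells. This ratio was 19.3 to 22.4 in T cell libraries 4 and 5 and 14.5 and 13.2 in female and male 6, which lay inside the B cell range of 11.5 to 14.9.

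The GTPase-activating genes were asked about next. Nf1 was 4.14-fold higher in B cells, whereas Rasa1, Rasa2 and Rasa3 had means within 1.23-fold of each other in the 2 cell types. Nf1 (ENSMUSG00000020716, chr11:79339693-79581612, plus strand, protein-coding) encodes neurofibromin, a RasGAP lost in neurofibromatosis. Its adjusted TPM in B cells had a lowest value of 10.3, a median of 12.5 and a highest value of 14.8, and in T cells these were 2.40, 2.61 and 4.01. No T cell library reached the B cell range, and the highest T cell values were 3.95 and 4.01 in female and male 6. The log2 fold change was 1.76 ± 0.12 (SE, limma adjusted p = 2.881e-08), and 1.93 without both T cell libraries numbered 6.

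Evi2a and Evi2b lie inside Nf1 on the opposite strand and were also higher in B cells, with means of 23.3 and 42.6 against 8.59 and 15.8 in T cells. Their part in the Nf1 difference was not tested, and how the counting used strand is not given in the sources used here. Nf1 made up 5.44% ± 0.634 (SD, n = 6) of the summed RasGAP adjusted TPM in B cells against 1.20% ± 0.284 in T cells. That sum takes in only Rasa1, Rasa2, Rasa3 and Nf1. Relative to Rasa1 in the same library, Nf1 was at 0.180 to 0.259 in B cells against 0.0378 to 0.0521 in T cells.

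Rasa1 (ENSMUSG00000021549, chr13:85214780-85289130, minus strand, protein-coding) encodes p120 RasGAP, which binds phosphorylated receptors and adaptors. In B cells its adjusted TPM had a lowest value of 52.4, a median of 56.3 and a highest value of 59.5, and in T cells these were 56.4, 63.8 and 87.3. The ranges overlapped, and the highest T cell values were 87.3 and 76.9 in female and male 6. Its log2 fold change was -0.28 ± 0.09 (SE, limma adjusted p = 0.01725). Without both libraries numbered 6 it was -0.14 (adjusted p = 0.04648). Ccnh overlaps Rasa1 on the opposite strand, with means of 19.8 in B cells against 21.0 in T cells.

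Rasa3 (ENSMUSG00000031453, chr8:13566948-13677603, minus strand, protein-coding) encodes a RasGAP that also acts on Rap1. It was the most abundant RasGAP, with a lowest value of 121.0, a median of 126.5 and a highest value of 140.5 in B cells, and of 133.5, 150.2 and 158.9 in T cells. The lowest T cell values, 133.5 and 137.3, were those of female and male 6, and they lay inside the B cell range. B minus T cells gave a log2 fold change of -0.20 ± 0.06 (SE, limma adjusted p = 0.01529), a 1.15-fold higher mean in T cells. Without both T cell libraries numbered 6 the log2 fold change was -0.26 (limma adjusted p = 0.003149).

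Rasa2 (ENSMUSG00000032413, chr9:96539300-96631617, minus strand, protein-coding) encodes a RasGAP of the GAP1 family and had nearly equal means, 31.8 ± 1.86 (SD, n = 6) in B cells against 30.7 ± 3.21 in T cells. Its log2 fold change was 0.05 with a 95% interval from -0.09 to 0.19 (limma adjusted p = 0.4756). The summed RasGAP adjusted TPM did not overlap on the deposited scale, at 222.4 to 237.8 in B cells against 244.3 to 260.8 in T cells. It did overlap after median-ratio scaling, at 227.8 to 251.3 against 234.8 to 258.9, and with libraries rescaled to 1 total. The sum of all 6 exchange factor members over the RasGAP sum was 1.19 ± 0.0878 in B cells against 1.16 ± 0.0671 in T cells. Both sums hold only the members. Rasal3, a further RasGAP named after its values were seen, was at 60.4 in B cells against 130.1 in T cells. Rasa4, named in the same way, was at 3.49 against 0.634. The ratio therefore does not give the balance over all RasGAPs.

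The small differences depended on how libraries were scaled. The median log2 fold change of all genes, -0.09 on the deposited scale, was -0.01 after median-ratio scaling and 0.25 when every library was rescaled to a total of 1000000. The share of calls that were higher in B cells was 43.0%, 50.1% and 70.8%. The library totals used for the last scale depended strongly on a single gene in some libraries. The highest gene value was 543240 of 1453940 in male T cell 6 and 321580 of 1000000 in female B cell 1. It was 75658 of 561020 in female B cell 3. The median-ratio factors ran only from 0.946 to 1.053. Rasa1, Rasa3 and Rasgrp2 changed direction with the rescaling to 1 total, to 0.10, 0.18 and 0.13, and Rasa1 and Rasa3 lost their calls after median-ratio scaling (adjusted p of 0.1005 and 0.1226). Sos1 gained a call on both other scales, at 0.34 after median-ratio scaling (adjusted p = 0.02539) and at 0.62 with 1 total (adjusted p = 0.002851). Taken relative to the median of all genes, Rasa1 was at -0.19, -0.18 and -0.16 on the 3 scales, Rasa3 at -0.11, -0.10 and -0.07, and Rasgrp2 at -0.16, -0.15 and -0.13. Rasgrp3, Nf1, Sos1, Sos2 and Rasa2 lay above the median and Rasgrp1 below it on all 3 scales. For Rasgrp1 the values relative to the median were -0.96, -0.95 and -0.93, and for Nf1 they were 1.85, 1.84 and 1.88.

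**Figure D3:**
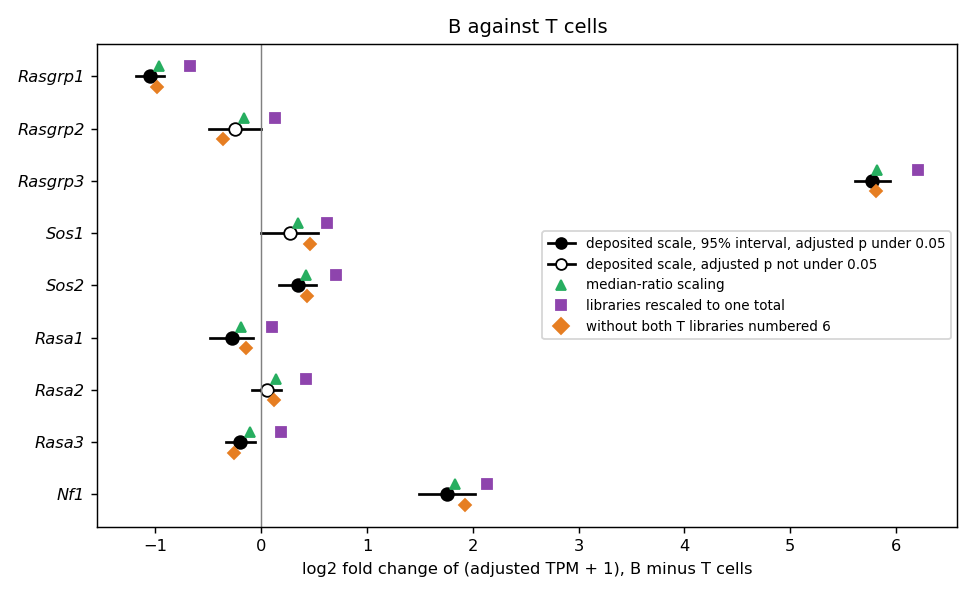
Log2 fold change of (adjusted TPM + 1), B minus T cells, for the 9 genes tested: circles with 95% intervals on the deposited scale (filled where the limma adjusted p is under 0.05), triangles after median-ratio scaling, squares with libraries rescaled to 1 total, diamonds without both T cell libraries numbered 6. Rasgrp3 (5.78), Nf1 (1.76) and Rasgrp1 (-1.05) keep their side of 0 in all 4, while Rasa1, Rasa3 and Rasgrp2 cross it with libraries rescaled to 1 total.

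The order of levels was similar at the top and differed below. In B cells the means ran from Rasgrp2 (140.5) and Rasa3 (128.9), whose ranges overlapped, to Rasgrp3 (58.4), Rasa1 (55.8) and Rasgrp1 (51.8), which overlapped with their neighbours. Below these came Rasa2 (31.8), then Nf1 (12.5) and Sos2 (11.02), which overlapped, then Sos1 (8.28) and Rasgrp4 (1.02). In T cells Rasgrp2 (166.9) and Rasa3 (147.8) overlapped, followed without overlap by Rasgrp1 (108.1), Rasa1 (68.5) and Rasa2 (30.7). Sos2 (8.501) and Sos1 (6.86) overlapped, and Nf1 (3.01), Rasgrp4 (0.570) and Rasgrp3 (0.0789) closed the order without overlap. All these levels are adjusted TPM, which is per length.

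The T cell libraries numbered 6 differed from the others in these genes as in many others. Relative to the mean of the T cell libraries numbered 4 and 5, the mean of the libraries numbered 6 was 1.59-fold for Sos1, 1.58-fold for Nf1, 1.33-fold for Rasa1, 1.22-fold for Sos2, 1.17-fold for Rasa2 and 1.13-fold for Rasgrp1. It was 0.792-fold for Rasgrp2 and 0.879-fold for Rasa3. For 8 of the 9 genes tested, all but Rasgrp3, and for Rasgrp4, both libraries numbered 6 lay outside the range of the other 4, as they did for 41.3% of all genes tested. Of the 3 activation and cycling genes checked, Il2ra was higher in both libraries numbered 6, Cd69 was at 64.1 and 97.3 against 41.9 to 49.98, and Mki67 was at 0.993 and 0.591 against 0.210 to 0.343. In the B cell libraries Mki67 was at 5.98 to 14.8, above every T cell library. There Cd69 was at 39.2 to 66.7 and Il2ra at 0.432 to 1.11. The sum of the 4 B cell markers was 4.91 and 2.43 in female and male 6 against 0.896 to 1.82. The monocyte and macrophage markers summed to 2.23 to 4.55 in libraries 6 against 1.06 to 1.53 in the others, and the 5 T cell markers to 1044 to 1129 against 1214.5 to 1328. The part of these in the differences was not tested.

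**Figure D4:**
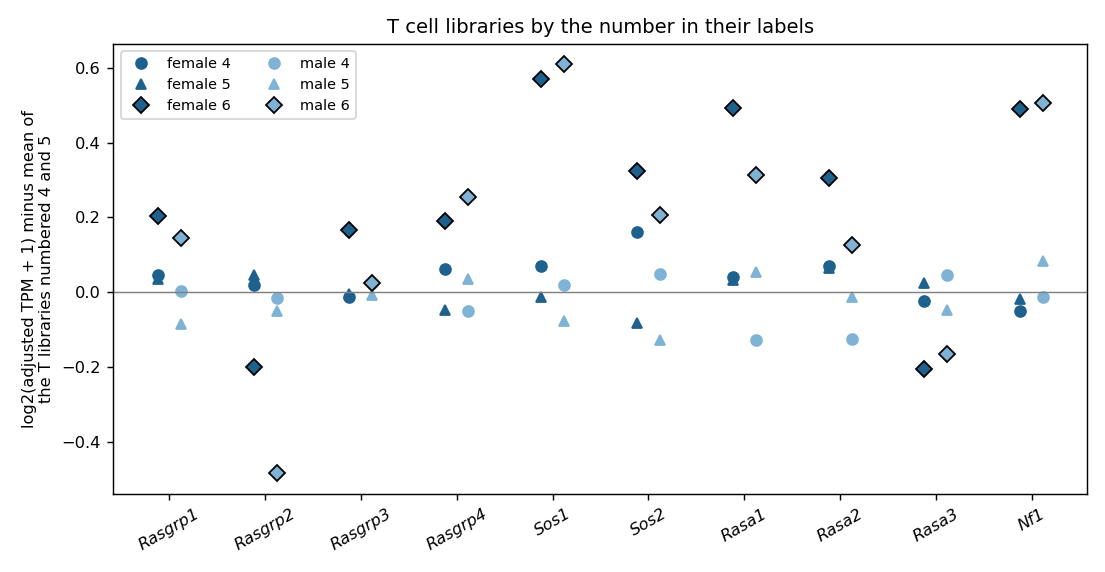
Log2(adjusted TPM + 1) of the 10 genes in each of the 6 T cell libraries, minus the mean of the 4 libraries numbered 4 and 5; colours give the sex and shapes the number. In both libraries numbered 6, Sos1, Nf1 and Rasa1 lie above the other 4 and Rasgrp2 and Rasa3 lie below them.

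The next comparisons asked whether females and males differed within a cell type. The library names carry a digit that female B cells share with male T cells, and a different digit that male B cells share with female T cells. Its meaning is not given in the sources used here. Whatever the digit marks cannot be told apart from sex within a cell type, or from the difference between the sex effects. None of the 9 genes tested was past the threshold in either cell type, and none had an unadjusted p under 0.05 in limma, where 0.144% of all genes tested were called in B cells against 0.104% in T cells. In B cells the log2 fold changes, female minus male, ran from -0.17 for Rasgrp3 to 0.12 for Rasgrp2. Rasgrp3 was at 50.9, 63.4 and 50.9 in females and at 67.3, 54.2 and 63.9 in males, overlapping ranges with a 95% interval of the difference from -0.40 to 0.07. Rasgrp2 was at 145.0, 141.1 and 148.8 in female B cells and at 113.2, 173.6 and 121.1 in male B cells, so the males enclosed the females.

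In T cells the female minus male values ran from -0.05 for Nf1 to 0.15 for Rasa2, which was at 30.5, 30.4 and 36.1 in females and 26.6, 28.8 and 31.8 in males. Within the 3 pairs of same-numbered T cell libraries, Rasgrp1, Rasgrp2, Sos2 and Rasa2 were higher in the female each time, as were 14.1% of all genes tested, and Nf1 was higher in the male each time, as were 13.9%. With the replicate number as a block, the smallest unadjusted p was 0.05764, for Rasa2 (limma adjusted p = 0.9999). The widest bounds of the 95% intervals over the 9 genes, without the block, were -0.41 and 0.46 in B cells against -0.42 and 0.48 in T cells, so larger sex differences than these lay outside every interval. The difference between the sex effects of B and T cells was past the threshold for none of the 9 genes and for 0.0% of all genes tested, with an unadjusted p under 0.05 for none of the 9 and for 295 of all genes. No sex difference was called among the 9 genes with the block either.

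The rest of the pathway was described with 66 further genes in 8 roles, of which 56 passed the filter. In B against T cells, 22 were called higher in B cells while 26 were higher in T cells, beside 31.4% and 41.6% of all genes, and their median log2 fold change was -0.07. With an absolute log2 fold change of at least 1, 13 were higher in B cells while 11 were higher in T cells, beside 11.8% and 9.76% of all genes. Of 5 Ras GTPases, 4 were tested and all 4 were called, 2 higher in B cells while 2 were higher in T cells. Over all genes tested 73.0% were called, so the counts per role here and below do not by themselves set a role apart. Nras, a main Ras isoform of lymphocytes, was at 30.9 ± 1.74 (SD, n = 6) in B cells against 48.4 ± 2.46 in T cells (log2 fold change -0.63, limma adjusted p = 2.621e-07). Rras, an R-Ras GTPase, was higher in B cells (0.62). These and the following values in parentheses are log2 fold changes, B minus T cells, on the log2(adjusted TPM + 1) scale. Called genes whose direction depended on the scaling were Rap1a, Apbb1ip and Shc1, beside Rasa1 and Rasa3.

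Upstream of the exchange factors different genes of the same kinds were high in the 2 cell types. Phospholipase C gamma, which makes the diacylglycerol that RasGRPs bind, was Plcg2 in B cells, at 116.2 ± 4.88 (SD, n = 6) against 0.0177 to 0.359 in T cells (log2 fold change 6.71). Plcg1 was at 101.2 ± 6.50 in T cells and 11.4 ± 0.785 in B cells (-3.05). All 7 tested genes of diacylglycerol supply and removal were called, 2 higher in B cells while 5 were higher in T cells. Dgka and Dgkz, kinases that remove diacylglycerol and were named after their values were seen, had log2 fold changes of -2.68 and -1.01. Dgkd, a kinase of the same kind named in the same way, was higher in B cells, at 132.0 against 86.7 in T cells (0.60).

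Of 9 tested adaptors towards SOS, 4 were called higher in B cells while 4 were higher in T cells. The shares over all genes were 31.4% and 41.6%. Lat, the T cell scaffold that binds Grb2, was at 228.3 ± 19.1 (SD, n = 6) in T cells and 0.406 ± 0.157 in B cells (log2 fold change -7.35), and Themis was higher in T cells as well (-6.77). Their relatives Lat2 (5.76) and Themis2 (5.47), and Grb2 itself (1.07), were higher in B cells. These 3 were named after their values were seen.

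Of 9 tested further RasGAPs and partners, 4 were called higher in B cells while 3 were higher in T cells. They included the docking proteins Dok3, higher in B cells (5.92), and Dok2, higher in T cells (-4.43). Of 14 Rap GTPases and regulators, 4 were higher in B cells while 9 were higher in T cells. Rap1gap, which inactivates Rap1, was at 2.45 ± 0.543 (SD, n = 6) in B cells, whereas it was at most 0.00267 in T cells (1.77), and Rap2b was higher in T cells (-1.61). The other exchange factor tested, Rasgrf2, was higher in T cells (-0.66).

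Downstream, of 7 genes of the MAP kinase cascade, 3 were called higher in B cells, none higher in T cells, and 4 were not called. Map2k1, which encodes MEK1, was at 76.2 ± 7.84 (SD, n = 6) in B cells against 36.6 ± 4.08 in T cells (log2 fold change 1.04), and Braf was at 0.50. Of 5 tested MAP kinase brakes, 3 were called higher in B cells while 2 were higher in T cells, with the phosphatase genes Dusp4 (2.20) and Dusp6 (1.57) higher in B cells.

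**Figure D5:**
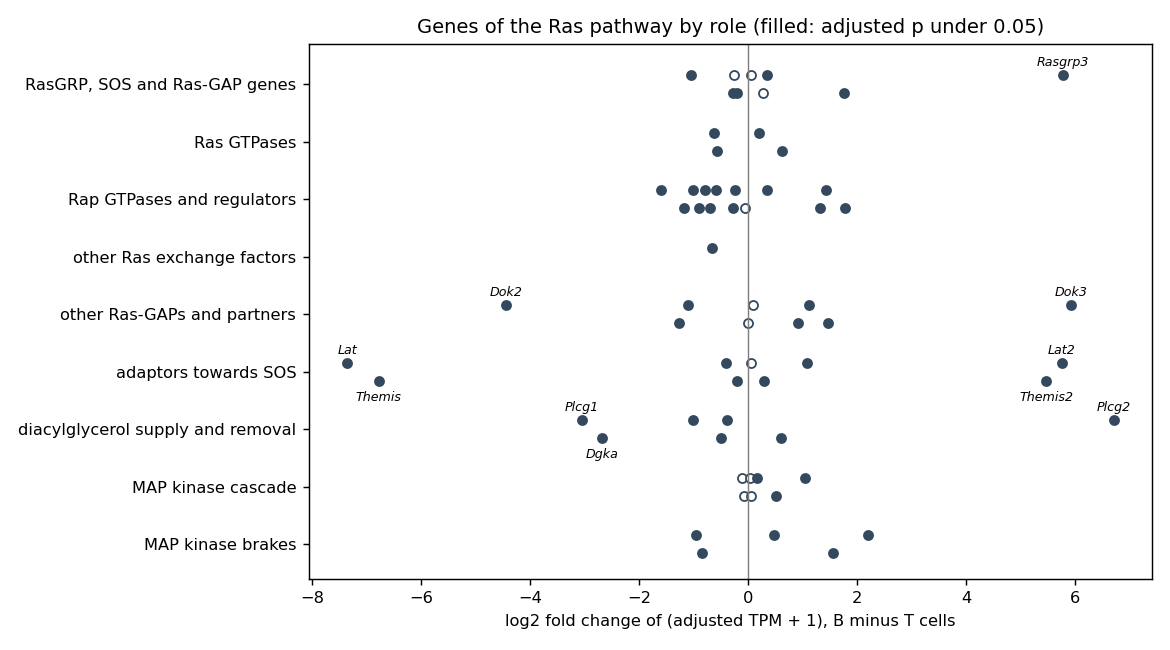
Log2 fold change of (adjusted TPM + 1), B minus T cells, for each tested gene of the pathway, by role; points are genes, filled where the limma adjusted p is under 0.05, with names where the absolute value is at least 2.5. Lat (-7.35) and Plcg2 (6.71) lie at the ends.

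The genes nearest in pattern to Rasgrp1, Rasgrp2 and Rasgrp3 over the 12 libraries are given as a description. For Rasgrp3 they were Pxdc1, Prr5 and Rab30, each with a Pearson r of 0.9998, and 1851 genes had an r over 0.95. The B and T cell libraries form 2 separate clusters of points for such a gene. For Rasgrp1 they were Jmy (0.9965), Thra (0.9965) and Tnfrsf26 (0.9957), all higher in T cells, and 1392 genes had an r over 0.95. For Rasgrp2 they were Zfp598 (0.918), Gm21887 (0.914) and Clk3 (0.895), and no gene had an r over 0.95. The points share libraries and scaling factors, and nothing about shared control follows from them.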

How the data were processed

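RNA freed of ribosomal RNA was made into strand-specific libraries with ERCC spike-ins, which were not analysed here. Per the labels, reads were handled with Trim Galore, FastQC and STAR on mm10. The quantification tool, the annotation, the adjustment and the level of the bounds are not given in the sources used here. The deposited signal is adjusted TPM with a lower and an upper bound per gene and library, so no read counts or depths were used, and none of the values is 0. The authors' rescaling sets any small difference between libraries. Some label fields call the material genomic DNA, although the series describes RNA.

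Groups were taken from the labels. Genes reaching 1 adjusted TPM in 3 or more libraries were fitted on log2(adjusted TPM + 1) with limma 3.58.1 (R 4.3.3), with 1 coefficient per group over 12 libraries and a mean-variance trend. P-values were adjusted by Benjamini-Hochberg over all genes tested, and the fit was tested on simulated data. Python 3.11.15 was used with pandas 2.3.3, numpy 2.4.6 and matplotlib 3.10.9. Coordinates come from GENCODE M21 (GRCm38). All 10 members are named, and for each role of the further pathway genes those with the 2 largest absolute changes past the threshold. Further pathway genes named after their values were seen are marked where they appear. A few genes of the lists are not reported here. The members, the lists and the motifs were chosen with earlier results of these data known. Alternatives were another pseudocount, no filter, other scalings, no trend, each sex or cell type alone, a replicate block and leaving out libraries.

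Replicate numbers are shared by females and males. In T cells, deviations from the group means of same-numbered libraries correlated (0.721, 0.548 and 0.521 over genes), so the numbers pair these libraries. P-values measure the spread between pools. Those for B against T cells treat the 6 T cell libraries as independent and ignore this pairing. Their standard errors may therefore be too small, which matters most for the small differences.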

Additional observations from a re-analysis of the deposited data

Results flagged for a closer look

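Within the 6 libraries of a cell type, the gap between an extreme library and its neighbour was compared with the whole range for each of the 10 genes, 20 sets in all. Chance flags about 1 set in 20, and 3 were flagged. Rasgrp3 was at 0.184 in T cell female 6, above the other T cell libraries (gap over range 0.807). Rasgrp4 was at 1.57 in male B cell 3 (0.641). Rasa2 was at 35.5 in male B cell 3 (0.830). No explanation was tested for any of them.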

How the results depend on the processing

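The number of members called stayed within 1.5 times its value under every alternative fitted in all 4 contrasts, though the members called changed. In B against T cells, where 6 of 9 were called, this limit could not flag any rise among the 9. Without both T cell libraries numbered 6, all members tested but Rasa2 were called. In females alone the calls were Nf1, Rasgrp1, Rasgrp2 and Rasgrp3, and in males alone Nf1, Rasgrp1, Rasgrp3 and Sos2. Without the filter Rasgrp4 was also fitted, and was called higher in B cells (0.36, limma adjusted p = 0.01161). For Rasgrp2 the limma adjusted p in females alone was 0.03808. The 78 recomputed shares and ratios of sums each moved by less than 1 SD. Leaving out 1 library, or both T cell libraries numbered 6, cannot move a mean of 6 by 1 SD. That outcome was therefore fixed in advance. In B against T cells, direction changed for Rasgrp2 (0.13), Rasa1 (0.10) and Rasa3 (0.18) with libraries rescaled to a total of 1000000, and for Rasa2 in females only (-0.048). Rasa1 and Rasa3 were not called in females only (adjusted p of 0.05888 and 0.1034) or in males only (0.1331 and 0.09918). The Rasgrp2 difference between females and males in B cells ran from -0.000902 to 0.31 when a library was left out, with both ends set by a male B cell library (1 and 2).

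Counts over all genes moved more. Without the filter, which adds genes near 0, the calls were 24591 for B against T cells, 10985 for sex in B cells, 10607 for sex in T cells and 11201 for the interaction of sex and cell type. Rescaling to 1 total gave 36, 23 and 16 for the last 3. The sex calls in T cells were 24 with a pseudocount of 0.1, and those in B cells were 5 when only B cell libraries were fitted. The difference between sex effects had 1 call with a pseudocount of 0.1, 3 without the trend and 3 without both T cell libraries numbered 6, an exclusion chosen after seeing the data. Leaving out libraries one at a time gave 0 to 3 such calls. The cause was not tested.

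With a replicate block, the sex calls numbered 14 for B cells, 10 for T cells and 0 for their difference. No member was called in any of these. B against T cells was not fitted with the block, so those calls were not checked this way. In B cells same-numbered libraries did not deviate together (-0.169, -0.0382 and -0.337), so there the number is only a name. B and T cell libraries share no number. Depth is unknown, and values under 1, such as Rasgrp4 and Rasgrp3 in T cells, have wide bounds.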
